A study of Mus musculus with 18 samples.

Results

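Liver mRNA of male mice given a single oral dose of 270 mg/kg monocrotaline (MCT 270) was compared with liver mRNA of mice given saline, using the 3 arrays of each group that the labels name, 6 of the 18 samples in the series. All mice were C57BL/6, 6 weeks old, and had been without food for 12 h before dosing. Food was given again afterwards, and livers were taken 48 h after the dose. Each group held 8 mice, of which 3 are labelled as arrayed. Each array measured total liver RNA as Cy3-labelled material on a whole mouse genome design, so every value is a mixture of all liver cell types. A further group given 330 mg/kg (MCT 330) is used only for values set beside those at 270 mg/kg. No marker gene chose the samples.

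Monocrotaline is a pyrrolizidine alkaloid of Crotalaria plants. Hepatic cytochrome P450 enzymes oxidise it to a reactive pyrrole that binds proteins, glutathione and DNA and cross-links DNA strands. In the liver it is known for damage to sinusoidal endothelial cells around the central vein, the lesion of sinusoidal obstruction syndrome. Hepatocytes around the central vein hold most of these P450 enzymes, and their gene programme is kept by Wnt and R-spondin signals from neighbouring endothelial cells. DNA lesions activate the transcription factor p53, and electrophiles activate Nrf2, which drives glutathione and quinone-reducing enzymes.

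The 6 arrays held fewer than 6 distinguishable samples. Control replicates 2 and 3, and likewise MCT 270 replicates 2 and 3, are recorded at the same slide position in different scans. The log2 difference between replicates 2 and 3 of a group had a robust SD of 0.0424 to 0.0467, at most 0.648 times the scatter of spots that carry the same probe. Replicate 1 differed from the other arrays of its group by a robust SD of 0.238 to 0.334, and control arrays from MCT 270 arrays by 0.367 to 0.458. Over 2958 repeated spots, the deviations of single spots from their probe mean correlated at r = 0.804 to 0.912 between replicates 2 and 3, and at 0.312 to 0.546 for all other array pairs. Replicates 2 and 3 were therefore averaged and counted as 1 sample, which leaves 2 control and 2 MCT 270 samples. The p-values below measure only the spread between these samples, although the labels number each array as a separate mouse. Between 63.0% and 80.3% of probes were well above background per array, and no spot was saturated. The Y-linked genes Ddx3y, Eif2s3y and Uty were well above background on every array of at least 1 group, as male labels require. The brightest Xist probe was so in neither group, at -6.91 to -5.10, while Uty, the dimmest of the 3 Y-linked genes, lay at -3.28 to -2.67. Albumin (Alb) lay at 8.65 to 9.02. Levels here are log2 processed signal minus the array's 75th percentile, so 0 is the signal of a probe at that percentile.

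Of 24820 genes tested, 0 passed limma's test at a Benjamini-Hochberg adjusted p under 0.05 (0% called), and 0.0585 was the lowest such p. An unadjusted p under 0.05 was reached by 4613 genes (18.6%), of which 2434 were higher (9.81%) and 2179 lower (8.78%) at 270 mg/kg. With all 3 treated arrays beyond all 3 control arrays and means at least 2-fold apart, 717 genes were higher (2.89%) and 726 lower (2.93%), together 5.81%. Among the 20517 genes that all 6 arrays measured well above background, 313 were higher (1.53%) and 661 lower (3.22%) by that measure. The median log2 fold change of all genes was -0.02, with a median SE of 0.192. In simulated data of this design, 89 of 100 genes with an 8-fold change passed the adjusted threshold and 0 of 100 with a 2-fold change did. Only these genes were changed among 24820, and noise was drawn from a fitted distribution, so the share passing need not hold for the measured data. Measured genes more than 8-fold apart, such as Bbs9 at -4.35, did not pass. Since no gene passed, "higher" and "lower" below describe measured levels, and counts at an unadjusted p under 0.05 are read against the 9.81% and 8.78% of all genes. There were 3 alternatives that kept the averaged samples and did call genes. Normexp background with quantile scaling called 503 (2.03%; 0.842% higher and 1.18% lower). Testing only genes well above background on all 6 arrays called 412 (2.01%; 0.585% higher and 1.42% lower). Trend and robust settings of eBayes called 978 (3.94%; 1.70% higher and 2.24% lower). In all 3 of these, 306 genes were called, 90 higher and 216 lower, and a gene is said below to pass the 3 alternatives where it is one of them. These 3 were singled out because they called genes, and every other alternative with averaged samples called 0. They use the same arrays, so passing them is a description and not independent support for a gene.

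**Figure D1:**
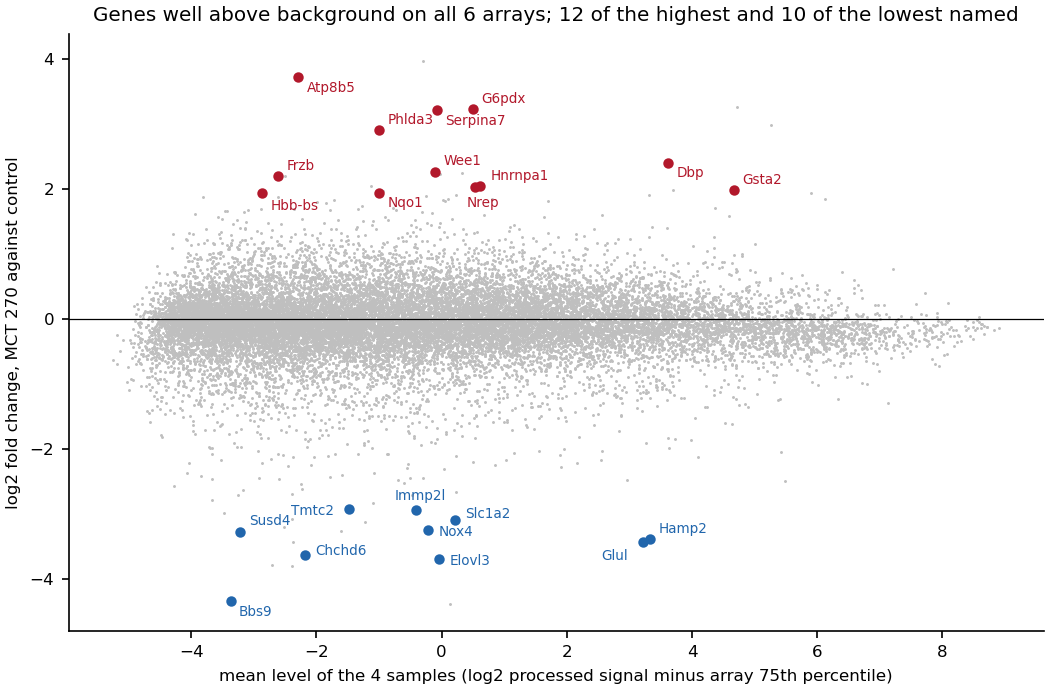
Log2 fold change of MCT 270 against control (vertical axis) against the mean level of the 4 samples (horizontal axis, log2 processed signal minus the array 75th percentile) for each gene well above background on all 6 arrays. Coloured points are the 12 named genes with the highest values, from Atp8b5 at 3.73, and 10 of the 12 with the lowest, down to Bbs9 at -4.35. Grey points are all other genes, among them ones with clone or predicted names or an unadjusted p over 0.05.

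Hepatocyte genes of the central vein were lower at 270 mg/kg. Of 29 pericentral genes tested, 17 were lower and 2 higher at an unadjusted p under 0.05, the median was -0.79, and 10 were at least 2-fold lower with all arrays apart. Control replicate 1 lay above replicates 2 and 3 by a median of 0.31 for this list. Glul, the glutamine synthetase confined to the last hepatocytes before the central vein, lay at 5.18, 4.68 and 4.70 on control replicates 1 to 3 and at 1.97, 1.04 and 1.04 on MCT 270 replicates 1 to 3. The groups did not overlap, and the difference was -3.43 ± 0.37 (SE, n = 2 and 2 samples, limma adjusted p 0.0813). Slc1a2, a glutamate transporter of the same cells, lay at 2.05, 1.47 and 1.47 in controls and at -1.13, -1.51 and -1.60 at 270 mg/kg, a difference of -3.10 ± 0.28 (adjusted p 0.0794, and -3.84 on its other probe). Oat, which makes glutamate from ornithine, differed by -1.91 ± 0.22, and the phosphatase Lhpp by -1.47 ± 0.16 (-0.57 on its other probe). All 4 genes pass the 3 alternatives.

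The targets by which Wnt signalling is usually read in this zone had similar values. Axin2, a feedback inhibitor of the pathway, lay between -3.27 and -2.62 in controls and between -5.27 and -5.03 at 270 mg/kg, a difference of -2.22 ± 0.26. Tbx3, a Wnt-dependent transcription factor, lay at 1.51, 0.86 and 0.93 in controls and at -0.88, -1.37 and -1.32 at 270 mg/kg, a difference of -2.32 ± 0.29 (adjusted p 0.0925). Lgr5, an R-spondin receptor, differed by -2.46 ± 0.60, with replicate 1 the higher array in both groups. The ammonium transporter Rhbg differed by -0.85 ± 0.23. The P450 enzymes of the zone were closer to control: Cyp1a2 differed by -0.75 ± 0.20, while Cyp2e1 lay between 8.32 and 8.48 in controls and at 8.33, 7.65 and 7.56 at 270 mg/kg, so that its arrays overlapped. Axin2, Lgr5, Rhbg, Cyp1a2 and Cyp2e1 are named for their roles and not by rank.

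Periportal hepatocyte genes and the drug-metabolising P450 list were nearer to the background. Of 26 periportal genes, 4 were lower and 2 higher, with a median of -0.15 that became 0.03 with quantile scaling and 0.01 with normexp. Pigr, the receptor that carries IgA into bile, lay at -1.25 ± 0.18 (-0.54 on its other probe), and Cps1, the first enzyme of the urea cycle, lay at 0.52 ± 0.17. Of 36 P450 and flavin monooxygenase genes, 5 were lower and 2 higher, with a median of -0.15 (0.08 with quantile scaling). Cyp2c68 lay at -0.98 ± 0.17 and Cyp1a1, a target of the aryl hydrocarbon receptor, at 1.08 ± 0.16. The 10 genes that define hepatocytes had a median of -0.12 (0.02 with quantile scaling), with 2 lower and 1 higher.

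Among plasma carriers and other liver genes, Serpina7, the thyroxine-binding globulin of plasma, lay at -2.09, -1.27 and -1.26 in controls and at 1.18, 1.90 and 1.88 at 270 mg/kg. The difference was 3.21 ± 0.38 (adjusted p 0.0887). Igfbp3 and Igfbp2, carriers of insulin-like growth factors, differed by -1.92 ± 0.19 and -1.31 ± 0.15. Which liver cells gave the Igfbp3 signal cannot be told from bulk RNA. The thyroid hormone receptor Thra lay between 0.32 and 0.43 in controls and between -1.58 and -1.18 at 270 mg/kg, a difference of -1.76 ± 0.20. All 4 pass the 3 alternatives. Csad, which commits cysteine to taurine, differed by -1.83 ± 0.23, and Abcb4, the phospholipid exporter of bile, by -1.23 ± 0.18. Of 30 respiratory chain genes, 5 were lower and 0 higher, with a median of -0.32, while control replicate 1 lay below replicates 2 and 3 by a median of 0.36. Of 31 ribosomal protein genes, 0 had an unadjusted p under 0.05 (median -0.14, or 0.09 with quantile scaling).

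Markers of the cells that line and neighbour the sinusoid were lower. Of 23 sinusoidal endothelial genes, 13 were lower and 0 higher, with a median of -0.77. Stab2, a scavenger receptor for hyaluronan, lay at 3.03, 3.04 and 3.11 in controls and at 0.69, 0.88 and 0.85 at 270 mg/kg. The groups were far apart against the spread within them, and the difference was -2.28 ± 0.16 (adjusted p 0.0602). The secreted nuclease Dnase1l3 differed by -1.68 ± 0.19, the mannose receptor Mrc1 by -1.35 ± 0.18 and Oit3 by -1.43 ± 0.19, and these 4 genes pass the 3 alternatives. Clec4g, an endothelial lectin, differed by -1.30 ± 0.24 and Stab1 by -0.99 ± 0.16, while Lyve1 differed by -0.50 ± 0.26 (unadjusted p 0.113). Of the signals these cells send to hepatocytes, Wnt9b differed by -0.87 ± 0.23 and Rspo3 by -0.82 ± 0.19, with arrays apart for both. In bulk RNA, fewer cells of a type and less RNA per cell cannot be told apart.

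Of 24 genes common to all endothelium, 8 were lower and 1 higher (median -0.31). The phosphatase Ptprb lay at -1.61 ± 0.19, with a second probe at -0.86, and the VEGF receptor Flt1 at -1.44 ± 0.20. Von Willebrand factor (Vwf) differed by -0.81 ± 0.17. Of 17 Kupffer cell genes, 8 were lower and 1 higher (median -0.58). The complement receptor Vsig4 lay at 2.55, 2.27 and 2.25 in controls and at 1.10, 0.92 and 0.95 at 270 mg/kg, a difference of -1.39 ± 0.18. The lectin Clec4f, a marker of Kupffer cells, differed by -1.31 ± 0.20. Clec1b and Csf1r lay at -1.26 ± 0.15 and -1.12 ± 0.15 on their brightest probes, but another probe of each lay at -0.13 and 0.13.

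Of 29 stellate cell genes, 14 were lower and 3 higher (median -0.49). Angptl6, a secreted angiopoietin-like protein, lay between 1.19 and 1.25 in controls and between -0.65 and -0.49 at 270 mg/kg, a difference of -1.80 ± 0.16 (adjusted p 0.0794). Colec11, a soluble lectin, differed by -1.53 ± 0.18, the haem protein Cygb by -1.19 ± 0.16 and the matrix protein Ecm1 by -1.25 ± 0.18 (-0.62 on its other probe). Pdgfrb, the growth factor receptor that marks pericytes, lay at -0.14 ± 0.17 with overlapping arrays. Summed over the list, scaled linear signal was 153 to 155 on control arrays and 94.0 to 97.6 on MCT 270 arrays for stellate genes. The same sums were 85.8 to 90.3 and 63.6 to 71.1 for Kupffer genes, 27.3 to 30.2 and 19.5 to 21.7 for common endothelial genes, and 198 to 253 and 181 to 202 for sinusoidal genes, where the arrays overlapped. No gene tested in these 4 lists was below background on all arrays of a group.

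**Figure D2:**
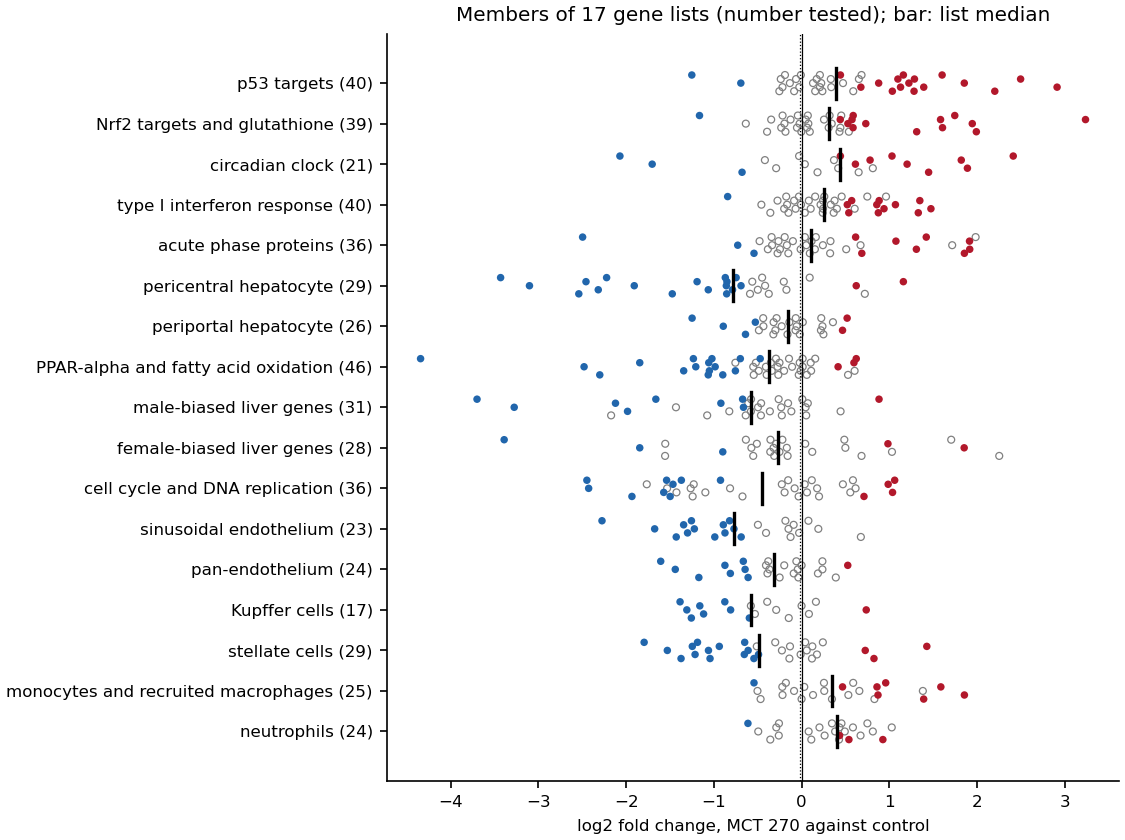
Log2 fold change of MCT 270 against control for each tested member of 17 gene lists, with the number tested in brackets. Filled points had an unadjusted p under 0.05 (red higher, blue lower), open points did not, the black bar is the list median and the dotted line the median of all genes. The bars of the pericentral and sinusoidal lists lie at -0.79 and -0.77, and those of the p53 and Nrf2 lists at 0.39 and 0.31.

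Targets of p53 were higher. Of 40 tested, 16 were higher and 2 lower, the median was 0.39, and 13 were at least 2-fold higher with all arrays apart, against 2.89% of all genes. Of the 40, 34 were well above background on all 6 arrays and 3 on no control array. Members dim in controls, such as Zfp365, were kept only through a treated group, which favours higher values. The 13 were not counted without such members. Phlda3, a p53 target that restrains Akt signalling, lay at -2.56, -2.34 and -2.36 in controls and at 0.23, 0.66 and 0.68 at 270 mg/kg. No array of one group came near the other, and the difference was 2.91 ± 0.22 (adjusted p 0.0690). Cyclin G1 (Ccng1), a classic p53 target, lay between -0.28 and 0.03 in controls and between 1.72 and 1.74 at 270 mg/kg, a difference of 1.85 ± 0.18. Dglucy, which encodes D-glutamate cyclase, differed by 1.39 ± 0.17. Phlda3, Ccng1 and Dglucy pass the 3 alternatives. Zfp365 differed by 2.20 ± 0.17 and was well above background on 1 of 3 control arrays.

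The p53 targets did not differ as a block. The cell death gene Bax lay at 1.16 ± 0.24 and the nuclease gene Aen at 0.88 ± 0.19. Cdkn1a, the p21 inhibitor of cell cycle kinases, lay at 0.37, 1.56 and 1.54 in controls and between 1.18 and 1.20 at 270 mg/kg, so that its arrays overlapped. Mdm2, which degrades p53, differed by 0.33 ± 0.17 (unadjusted p 0.119), and Bbc3, which encodes the death protein Puma, by -0.01 ± 0.16. These 5 genes are named for their roles. Of 29 genes of DNA damage signalling and repair, 3 were higher and 2 lower (median 0.04, or -0.06 without control replicate 1). Xpa, a nucleotide excision repair factor, was among the lower at -1.17 ± 0.18.

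Among targets of Nrf2 and glutathione genes, more were higher than lower. Of 39 tested, 13 were higher and 1 lower (median 0.31). G6pdx, the first enzyme of the pentose phosphate pathway, which supplies NADPH, lay at -1.23, -0.98 and -1.01 in controls and at 2.10, 2.17 and 2.13 at 270 mg/kg. The difference was 3.23 ± 0.17 (adjusted p 0.0585). G6pd2, an intronless copy of G6pdx that is not among the 39, was below background in controls and well above it on all 3 MCT 270 arrays. Whether either probe also reads the other transcript was not tested.

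Nqo1, the quinone reductase, lay at -2.22, -1.72 and -1.72 in controls and at 0.06, -0.09 and -0.12 at 270 mg/kg, a difference of 1.94 ± 0.23. Gsta2, a glutathione transferase, differed by 1.99 ± 0.28, the carbonyl reductase Cbr3 by 1.74 ± 0.18 and Ugdh, which makes the sugar donor for glucuronidation, by 1.58 ± 0.17. These genes and G6pdx pass the 3 alternatives. Other targets stayed nearer to control: Gclc and Gclm, the subunits of the enzyme that limits glutathione synthesis, lay at 0.09 ± 0.22 and 0.25 ± 0.17, Txnrd1 at 0.00 ± 0.16 and Hmox1 at -0.02 ± 0.23. The 1 lower member was Osgin1, at -1.16 ± 0.32.

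From this list 2 members are shown with the 250 bases before their RefSeq transcription start (GRCm38.p6), because they hold the core letters of the antioxidant response element, TGACNNNGC, searched on both strands and printed in capitals. The Ugdh window is chr5:65435843-65436092 and the G6pdx window chrX:74428881-74429130, both on the minus strand, and each sequence reads 5′ to 3′ towards the start.
Ugdh: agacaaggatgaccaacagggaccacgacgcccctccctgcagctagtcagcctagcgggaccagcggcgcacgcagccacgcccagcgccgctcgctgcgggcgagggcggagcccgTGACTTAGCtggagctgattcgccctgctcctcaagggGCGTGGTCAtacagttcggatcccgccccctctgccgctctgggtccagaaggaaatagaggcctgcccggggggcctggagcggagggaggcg
G6pdx: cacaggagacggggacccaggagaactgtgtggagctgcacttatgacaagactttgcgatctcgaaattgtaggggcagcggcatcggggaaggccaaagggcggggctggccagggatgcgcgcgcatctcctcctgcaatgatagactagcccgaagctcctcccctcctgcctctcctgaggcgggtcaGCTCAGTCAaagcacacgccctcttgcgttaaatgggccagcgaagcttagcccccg
Ugdh holds 2 matches and G6pdx 1. A RefSeq window was found for 34 of the 39 tested members, of which 8 hold a match, against 11.5% of all 27025 symbols with a window. Of the 12 higher members with a window, 4 hold one, and Nqo1, Gsta2 and Cbr3 do not. A match is a description of letters, and binding was not measured here.

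Genes of the circadian clock and its outputs differed in both directions. Of 21 tested, 9 were higher and 3 lower (median 0.44). The PAR bZIP factor Dbp, a direct output of the clock, lay at 2.72, 2.12 and 2.08 in controls and at 4.72, 4.93 and 4.91 at 270 mg/kg, a difference of 2.41 ± 0.26 (adjusted p 0.0813) that a second probe gave as 2.52. Its antagonist Nfil3 lay at 1.99, 2.42 and 2.36 in controls and at 0.13, 0.11 and 0.09 at 270 mg/kg, a difference of -2.07 ± 0.20. Both pass the 3 alternatives. The repressor gene Per2 differed by 1.89 ± 0.31 and Ciart by 1.82 ± 0.28, whereas the activator gene Arntl differed by -1.70 ± 0.42. Wee1, a kinase that delays mitosis and whose gene follows the clock, lay between -1.24 and -1.22 in controls and between 0.75 and 1.31 at 270 mg/kg, a difference of 2.27 ± 0.23. Nr1d1, which represses Arntl, overlapped between groups (0.18 ± 0.41). The labels give a light cycle but the hour of dosing and of tissue collection is not given in the sources used here.

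The E-box CACGTG is the palindromic site of the clock activators, the same on both strands, and 5 of 17 clock genes with a RefSeq window hold it in the 250 bases before the start, against 6.86% of all symbols with a window. Of the 7 higher members with a window, 3 hold it. Of these, 2 are shown with the motif in capitals, at chr3:95882229-95882478 on the minus strand for Ciart and chr15:81802423-81802672 on the plus strand for Tef.
Ciart: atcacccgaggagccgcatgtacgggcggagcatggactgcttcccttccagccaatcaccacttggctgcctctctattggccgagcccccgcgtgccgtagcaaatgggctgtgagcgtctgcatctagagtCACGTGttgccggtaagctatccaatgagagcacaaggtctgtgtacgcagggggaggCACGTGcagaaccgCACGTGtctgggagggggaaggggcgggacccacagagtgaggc
Tef: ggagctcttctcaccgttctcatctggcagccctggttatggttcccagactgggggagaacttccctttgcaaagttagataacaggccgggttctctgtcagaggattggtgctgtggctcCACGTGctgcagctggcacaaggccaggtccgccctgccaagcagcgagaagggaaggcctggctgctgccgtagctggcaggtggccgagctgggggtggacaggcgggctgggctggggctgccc
Ciart holds 3 E-boxes and Tef 1. Ciart, a repressor of the clock, lay between -0.95 and -0.69 in controls and at 1.32, 0.61 and 0.64 at 270 mg/kg. Tef, a relative of Dbp, lay between 4.01 and 4.07 in controls and between 4.77 and 4.86 at 270 mg/kg, a difference of 0.78 ± 0.15. Dbp and Nfil3 hold no CACGTG in this window.

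**Figure D3:**
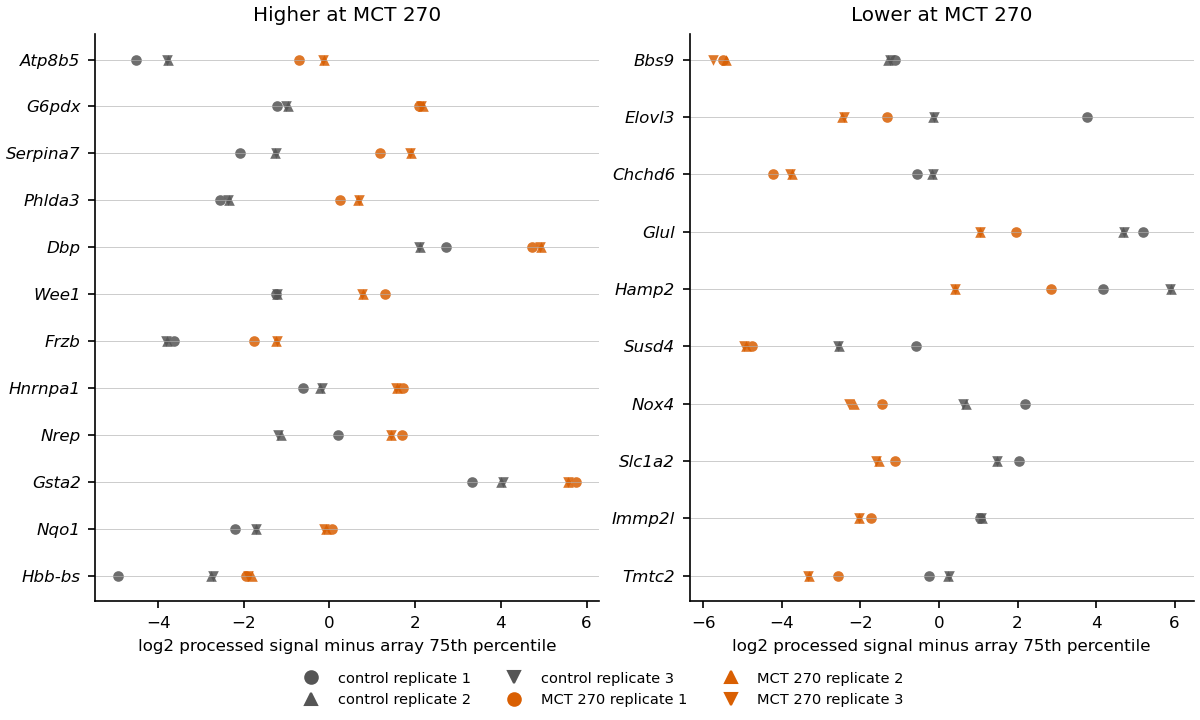
Level on each of the 6 arrays (horizontal axis, log2 processed signal minus the array 75th percentile) of the 12 named genes with the highest log2 fold change and 10 of the 12 with the lowest. Grey marks controls and orange MCT 270, with circles for replicate 1 and triangles for replicates 2 and 3. The groups do not overlap for any of the 22, as the naming rule requires, and replicate 1 of the controls stands far from replicates 2 and 3 for Elovl3 (3.76 against -0.15 and -0.12) and Hbb-bs (-4.93 against -2.77 and -2.73).

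Several of the genes with the lowest values encode unrelated proteins. Bbs9, a subunit of the ciliary BBSome, lay at -1.12, -1.30 and -1.24 in controls and at -5.49, -5.43 and -5.76 at 270 mg/kg, a difference of -4.35 ± 0.16 (adjusted p 0.0585). Immp2l, a mitochondrial inner membrane peptidase, lay between 1.04 and 1.10 in controls and between -2.03 and -1.74 at 270 mg/kg, a difference of -2.95 ± 0.18. Chchd6, of the mitochondrial cristae complex, differed by -3.64 ± 0.25, and Tmtc2, an O-mannosyltransferase of the endoplasmic reticulum, by -2.93 ± 0.33. All 4 pass the 3 alternatives.

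What these 4 genes share is a long genomic span. In RefSeq (GRCm38.p6) the gene of Immp2l spans 932 kb, Bbs9 413 kb, Tmtc2 387 kb and Chchd6 213 kb. Of the 12 genes that the naming rule ranks lowest, 5 span over 300 kb and 9 over 100 kb (median 183 kb), against 0 and 1 of the 12 highest (median 15.6 kb). Of all 16983 tested genes with a span, 2.17% exceed 300 kb and 11% exceed 100 kb. This property was examined after the values were seen and is given without a test.

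Over all genes with a span, the median log2 fold change was -0.03 for genes up to 10 kb, 0.01 from 10 to 30 kb, 0.00 from 30 to 100 kb, -0.08 from 100 to 300 kb and -0.29 above 300 kb. Of the 368 genes above 300 kb, 133 were lower (36.1%) and 16 higher (4.35%) at an unadjusted p under 0.05. Among only those genes that every array measured well above background, the median of the longest class was -0.40, with 40.8% lower and 3.68% higher, against 10.1% and 8.30% of all such genes. The 4 pairs of an MCT 270 and a control sample gave medians of -0.26, -0.21, -0.42 and -0.36 for that class. Between samples of 1 group its median difference was 0.05 for controls and 0.08 for MCT 270. The longest class also had the lowest median control level of the 5, at -2.36.

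**Figure D4:**
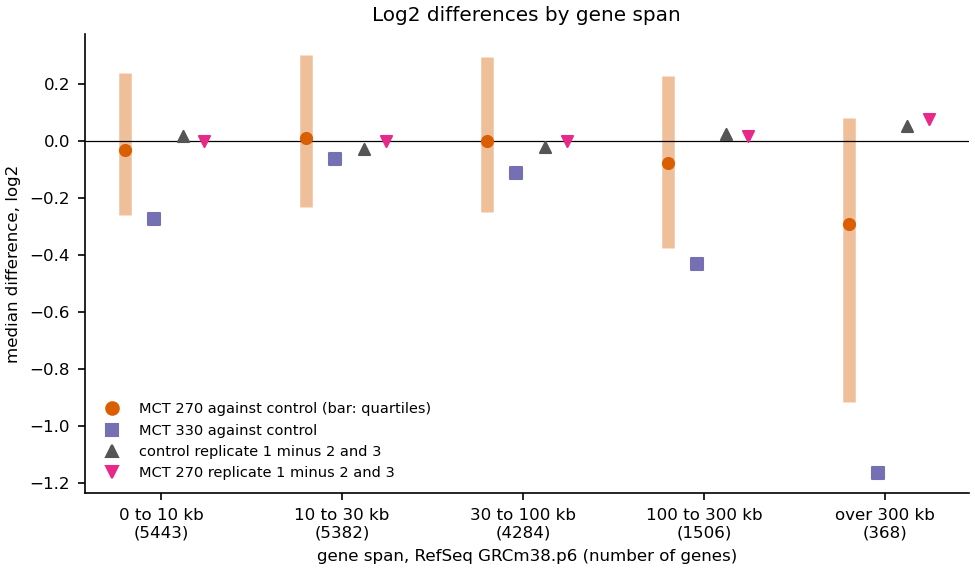
Median log2 difference (vertical axis) by class of gene span (horizontal axis, with the number of genes). Orange circles give MCT 270 against control with bars from the lower to the upper quartile, purple squares MCT 330 against the same controls, and triangles the difference between the samples of 1 group. Above 300 kb the medians are -0.29 at 270 mg/kg and -1.16 at 330 mg/kg, while the differences within groups are 0.05 and 0.08.

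The other genes with extreme values had distinct roles. Atp8b5, a phospholipid flippase gene, lay at 3.73 ± 0.34, with arrays between -4.52 and -3.76 in controls and between -0.71 and -0.12 at 270 mg/kg, but its other probe lay at 0.38. Hnrnpa1, an RNA-binding protein, lay at 2.05 ± 0.21 on its brightest probe and at 0.20 on the other. Frzb, a secreted Wnt antagonist, lay between -3.80 and -3.62 in controls and between -1.77 and -1.21 at 270 mg/kg, a difference of 2.21 ± 0.24. Nrep differed by 2.04 ± 0.48. The beta globin gene Hbb-bs differed by 1.94 ± 0.73, which became 0.85 without control replicate 1. Of 10 erythroid genes 2 were higher and 1 lower, and their median was 0.52, or -0.08 without that array. At the lower end, Nox4, an NADPH oxidase of hepatocytes and stellate cells, lay at 2.18, 0.68 and 0.61 in controls and at -1.45, -2.15 and -2.30 at 270 mg/kg, a difference of -3.25 ± 0.58 (-2.48 without control replicate 1), and its other probe lay at -1.21. Susd4, a complement regulator, lay at -0.60, -2.54 and -2.57 in controls and between -4.96 and -4.76 at 270 mg/kg, a difference of -3.28 ± 0.66 that became -2.30 without control replicate 1. Hamp2, which encodes a hepcidin, differed by -3.39 ± 0.98, with control arrays from 4.17 to 5.90 and MCT 270 arrays from 0.41 to 2.86.

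For genes that no array of a group measured well above background, only a bound can be given: the mean of the brighter group over the higher of the dim gene's own signal and the lowest signal well above background, per array. In this sense Ddias, a gene induced by DNA damage, was at least 5.49-fold higher at 270 mg/kg, and Psrc1, a microtubule-associated p53 target, at least 4.98-fold. The cytokine Tgfb2 was at least 4.11-fold higher and Nexmif at least 3.78-fold. For both, MCT 270 replicate 1 stood above replicates 2 and 3 (Tgfb2 at -1.93 against -4.82 and -5.01, Nexmif at -2.83 against -4.31 and -4.42), and without that array the fitted difference of Tgfb2 was 1.24 in place of 2.74. Cxcl13, a chemokine for B cells, was at least 8.31-fold lower. It lay at -2.49, -3.50 and -3.37 in controls, and no MCT 270 array measured it well above background. The formin Fhod3 was at least 5.05-fold lower, the adrenoceptor Adra2a at least 4.68-fold and the transporter Slc6a21 at least 3.52-fold. For Adra2a, control replicate 1 lay at -5.16 against -2.35 and -2.41 on replicates 2 and 3.

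Genes of fatty acid oxidation under PPAR-alpha, the receptor that drives the fasting response of the liver, were lower. Of 46 tested, 16 were lower and 3 higher (median -0.38), and control replicate 1 lay below replicates 2 and 3 by a median of 0.35. Acot1, an acyl-CoA thioesterase, lay at 3.95, 4.43 and 4.47 in controls and at 1.93, 1.50 and 1.51 at 270 mg/kg, a difference of -2.48 ± 0.26 (adjusted p 0.0813). The omega-hydroxylase Cyp4a32 differed by -1.02 ± 0.19. The fasting hormone gene Fgf21 differed by -4.34 ± 0.95, but its control arrays ranged from -2.59 to 0.31, and 2 of 3 MCT 270 arrays measured it well above background. Igfbp1, which rises in fasting, lay at 5.80, 7.12 and 7.11 in controls and at 5.09, 3.71 and 3.72 at 270 mg/kg, a difference of -2.06 ± 0.64.

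On the synthesis side, 4 of 29 genes were lower and 3 higher (median -0.17), and control replicate 1 lay below replicates 2 and 3 by a median of 0.49. Srebf1, the transcription factor of lipogenesis, lay at 0.51, 0.82 and 0.78 in controls and at 1.77, 2.06 and 2.04 at 270 mg/kg, a difference of 1.26 ± 0.20. Gpam, which starts triglyceride synthesis, differed by 1.12 ± 0.16, while Acacb, whose product inhibits fatty acid import into mitochondria, differed by -1.57 ± 0.23 and Insig2, which retains SREBP in the endoplasmic reticulum, by -1.62 ± 0.27. Their other probes lay at -0.53 and -0.92. All 4 pass the 3 alternatives. Of 27 cholesterol genes, 8 were lower and 3 higher (median -0.13), with the synthesis enzymes Nsdhl at -1.43 ± 0.15 and Idi1 at -1.01 ± 0.17.

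Cell cycle genes had a median of -0.45, with 9 of 36 lower and 4 higher. Cyclin B1 (Ccnb1) lay at -0.88, -0.26 and -0.27 in controls and at -3.08, -2.90 and -2.94 at 270 mg/kg, a difference of -2.43 ± 0.26 (-0.80 on the least different of its 3 probes). E2f8, a factor of polyploid hepatocytes, differed by -1.50 ± 0.23. Control replicate 1 lay below replicates 2 and 3 for this list by a median of 0.69, a difference within controls larger than that between the groups. Of 34 genes of the unfolded protein and integrated stress responses, 7 were higher and 2 lower (median 0.25), with the chaperone Canx at 0.80 ± 0.17, while Ppp1r15a, a feedback factor of that response, lay at -0.89 ± 0.22. Of 17 heat shock genes 5 were higher and 1 lower (median 0.16), and of 29 immediate early genes 3 were higher and 2 lower, with Klf4 at 0.98 ± 0.19 and Egr1 at -1.14 ± 0.20.

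The acute phase and interferon lists held a larger share of higher members than all genes did. Of 36 acute phase genes, 8 were higher and 3 lower (median 0.10). The metalloreductase Steap4 lay at -0.53, -0.92 and -0.93 in controls and at 0.88, 1.48 and 1.50 at 270 mg/kg, a difference of 1.92 ± 0.28. The acute phase glycoprotein Orm3 differed by 1.42 ± 0.23 and the protease inhibitor Serpina3n by 1.07 ± 0.20. Of 40 interferon response genes, 11 were higher and 1 lower (median 0.25), while control replicate 1 lay above replicates 2 and 3 by a median of 0.47. Zbp1, a sensor of nucleic acids, lay between -1.03 and -0.93 in controls and between 0.48 and 0.54 at 270 mg/kg, a difference of 1.47 ± 0.15 that passes the 3 alternatives. The GTPase Gbp2 differed by 1.35 ± 0.24 and the immunoproteasome subunit Psmb8 by 1.07 ± 0.22.

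Among 38 cytokines and chemokines, 7 were higher and 7 lower (median 0.20). Of the 38, 27 were well above background on all 6 arrays and 6 on no control array. The higher members Ccl3, Ccl22 and Ccl7 were dim on all control arrays and kept only through a treated group. The lower member Cxcl13 was dim on all MCT 270 arrays. The monocyte attractants Ccl2 and Ccl7 were also higher, Ccl2 by 1.80 ± 0.48 and Ccl7, which no control array measured well above background, at least 3.57-fold. The leukocyte marker lists differed among themselves. Of 25 genes of monocytes and recruited macrophages, 7 were higher and 1 lower (median 0.35), with Saa3 at 1.85 ± 0.33 and Chil3 at 1.39 ± 0.32. Saa3 is also a member of the acute phase list. For the monocyte list, control replicate 1 lay above replicates 2 and 3 by a median of 0.36, about as far apart as the groups. The summed signal of the monocyte list overlapped between the groups, at 219 to 269 in controls and 236 to 249 at 270 mg/kg. Of 24 neutrophil genes, 3 were higher and 1 lower (median 0.40), and 9 were not well above background on any control array. The 3 higher were Stfa2l1, Padi4 and Il1r2, well above background on 0, 1 and 0 of 3 control arrays. They were kept only through a treated group, Il1r2 only through MCT 330, so their count is not read as a result. The summed signal of the list was 58.8 to 68.8 in controls and 73.1 to 105 at 270 mg/kg, while S100a8 and S100a9 overlapped between the groups (0.49 ± 0.40 and 0.20 ± 0.51). Of 16 T cell genes, 0 were higher and 2 lower (median -0.14), with Cd4 at -1.22 ± 0.21 on its brightest probe and -0.20 on another. The summed signal of the T cell list was 24.6 to 29.5 in controls and 13.3 to 16.1 at 270 mg/kg. Most of that sum came from the brightest Cd4 probe, so it is not read as a result for T cells. Of 13 NK cell genes 0 were higher and 2 lower, of 12 B and plasma cell genes 2 were higher and 1 lower, and of 11 platelet genes 1 was higher and 1 lower. The higher platelet gene Gp5 and the higher B cell gene Ms4a1 were well above background on no control array. The part of these cells in the inflammatory results was not tested.

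In the remaining lists the shares of members were small or uneven. Of 31 male-biased liver genes, 8 were lower and 1 higher (median -0.58), and of 28 female-biased genes 3 were lower and 2 higher (median -0.27). Of 23 genes of metallothionein, zinc and iron, 7 were lower and 3 higher, with Smad7 and Id1, readouts of BMP signalling to hepcidin, at -1.02 ± 0.20 and -1.15 ± 0.25 and the transferrin receptor Tfrc at 1.27 ± 0.28 (1.03 to 2.43 over its 3 probes). Of 19 genes of clotting initiation and fibrinolysis, 4 were higher and 3 lower, with Procr, the endothelial protein C receptor, at 1.49 ± 0.19 and the urokinase receptor Plaur at 1.14 ± 0.24. Of 26 complement genes 4 were lower and 1 higher, and of 30 hepatocyte coagulation factors 3 were lower and 2 higher. Of 39 plasma carriers and secreted hepatocyte proteins 9 were lower and 2 higher, and of 26 hepatocyte transcription factors 5 were lower and 1 higher. Of 26 xenobiotic and nuclear receptors 4 were lower and 3 higher, and of 25 conjugating enzymes 4 were lower and 1 higher. Of 33 bile acid genes 5 were lower and 4 higher, of 26 genes of gluconeogenesis and glycogen 4 were lower and 1 higher, and of 41 genes of amino acid catabolism and the urea cycle 6 were lower and 5 higher. Lists of tissues or cells that could be carried along with the liver were short, so their shares decide little. There were 1 higher and 1 lower of 14 for cholangiocytes, 0 of 12 for exocrine pancreas, and 1 higher and 0 lower for adipose tissue (of 9), skeletal muscle (of 7) and mesothelium (of 5). For the last 3 that is 11.1%, 14.3% and 20% higher, against 9.81% of all genes. All 5 mesothelium genes had positive values (median 0.68), and 2 were well above background on all 6 arrays. The higher cholangiocyte gene Krt7 was well above background on no control array.

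The spread within the groups was not even. Among genes well above background on all 6 arrays, 757 lay over 1 log2 unit apart between the control samples and 357 between the MCT 270 samples. The genes furthest apart within controls included sex-biased liver genes. Sult2a2, a female-biased sulfotransferase, lay at -5.29 on control replicate 1 and at 0.88 and 0.87 on replicates 2 and 3. Hao2, a hydroxyacid oxidase, lay at -3.66 against 1.56 and 1.57, and Elovl3, a male-biased fatty acid elongase, at 3.76 against -0.15 and -0.12. Over the lists, control replicate 1 minus replicates 2 and 3 had a median of 1.01 for male-biased and -1.70 for female-biased genes, against 0.21 and 0.34 between the MCT 270 samples. For Elovl3 the difference from control was -3.70 ± 1.33 and -1.75 without control replicate 1. For Hao2 it was 0.50 ± 1.73 and -2.11 without that array.

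Within MCT 270, replicates 2 and 3 lay above replicate 1 for several acute phase genes. Serum amyloid A1 (Saa1) lay at 3.36 on replicate 1, near the 3.14 of control replicate 1, and at 6.05 and 5.97 on replicates 2 and 3. Lcn2, an iron-binding protein of the acute phase, lay at 3.37 against 5.20 and 5.15. The growth hormone targets Socs2 and Cish also lay lower on replicate 1, Socs2 at -2.61 against -0.74 and -0.75, and Cish at 0.78 against 3.14 and 3.13. The difference from control was 1.98 ± 0.92 for Saa1, within the spread of the samples.

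**Figure D5:**
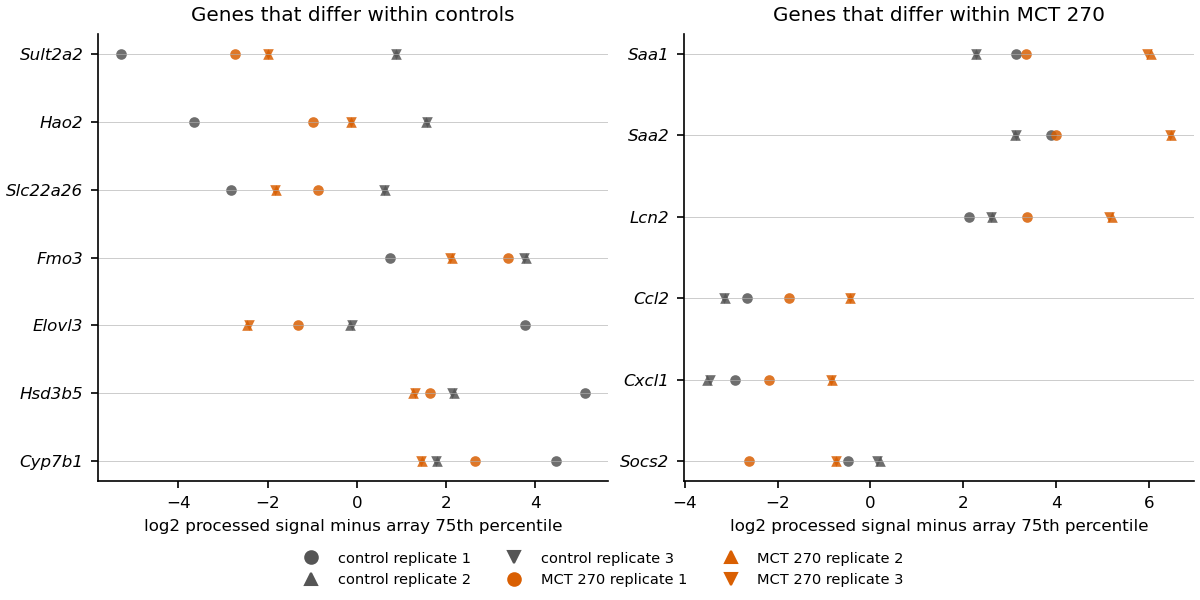
Level on each array (horizontal axis, log2 processed signal minus the array 75th percentile) of genes that differ between the samples of 1 group, on the left within controls and on the right within MCT 270. Circles are replicate 1 and triangles replicates 2 and 3. Control replicate 1 stands apart for Sult2a2 (-5.29 against 0.88 and 0.87), and MCT 270 replicate 1 stands apart for Saa1 (3.36 against 6.05 and 5.97).

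At 330 mg/kg the same controls were used and the arrays amounted to 1 sample, which has no spread of its own, so log2 differences from control are set side by side. A fit that assumes this sample to vary like the other groups called 8239 genes at 330 mg/kg against control (33.2%) and 5400 between the doses (21.8%), counts that rest on that assumption. Phlda3 lay at 2.91 at 270 mg/kg and at 4.64 at 330 mg/kg. Nox4 lay at -3.25 and -6.88, Tmtc2 at -2.93 and -5.33 and Immp2l at -2.95 and -4.16, in the same order. Dbp lay at 2.41 and -0.29, and Nrep at 2.04 and -1.39. The values of some genes were closer: Bbs9 lay at -4.35 and -4.38, Glul at -3.43 and -3.54, G6pdx at 3.23 and 3.71 and Nqo1 at 1.94 and 2.00. Bbs9 was dim at both doses, between -5.76 and -5.43 on MCT 270 arrays and between -5.68 and -5.46 on MCT 330 arrays. Whether the limit of detection holds its 2 values together was not tested.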

How the data were processed

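Liver mRNA of 3 control and 3 MCT 270 samples was measured on 1-colour Agilent arrays, whose design was annotated on mm9. Per the file headers, scanning software (Agilent Feature Extraction 11.0.1.1) made the deposited intensities. The processed intensity that the authors deposited has background subtracted and is detrended within the array. Here log2 of it was taken minus the array's 75th percentile. Outlier-marked spots were left out, and spots of a probe were averaged. A probe was kept if every array of some group measured it well above background, and a gene took its brightest probe. Arrays of a group within the noise of repeated spots were averaged. In all, 5 samples (2 control, 2 MCT 270, 1 MCT 330) entered 1 limma 3.58.1 fit in R 4.3.3 with Benjamini-Hochberg adjustment at 0.05, tested on simulated data. The lone MCT 330 sample takes its spread from the other groups. Of its replicate 1, 1620 spots that stood more than 1 log2 unit off both companion arrays were dropped.

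The members and lists (49 lists, 1196 symbols, 1123 tested) were chosen with earlier results of these data known. Named are the 12 highest and 12 lowest genes well above background on all 6 arrays with an unadjusted p under 0.05 and arrays apart, up to 4 per direction by bound, up to 4 per list by smallest p, and 6 per group with the largest spread. Clone, predicted and RIKEN names were left out, and some genes the rule names are not reported here. Genes named for their roles or within-group spread fall outside this rule and were chosen after their values were seen. Symbols, gene spans and promoters are from RefSeq (GRCm38.p6); 27234 of 39429 probes matched and the rest kept the file's name. The number of arrays limits the precision.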

Additional observations from a re-analysis of the deposited data

How the results depend on the processing

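The count of genes called at an adjusted p was 0 in 12 of 18 alternatives. It was 503 with normexp and quantile scaling, 412 for genes well above background on all 6 arrays and 978 with trend and robust eBayes. It was 9693 with the 9 arrays as separate samples and 4729 with scan time as a block over 6 arrays, alternatives that count near-identical arrays as independent. Genes at an unadjusted p under 0.05 numbered 12018 and 9252 in these last fits. Across genes, the difference between the 2 control samples correlated at r = 0.09 with the difference between the 2 MCT 270 samples. With 1 difference per group, this cannot decide whether replicate numbers mark a shared effect. The replicate numbers are taken as numbers only. With the replicate number as a block, 0 genes were called over averaged samples (lowest adjusted p 0.176), and 9498 over 9 arrays, where 12167 had an unadjusted p under 0.05. Leaving out 1 array at a time gave 0 called genes and 2703 to 5690 at an unadjusted p, the lowest without MCT 270 replicate 1. Genes apart and at least 2-fold higher ranged from 713 to 1177 and lower from 724 to 1007 in those fits; normexp gave 162 and 350, and the filter on all 6 arrays 313 higher. The cause was not tested beyond what each alternative leaves out.

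Of 218 named genes, 9 reversed in at least 1 setting, all with an adjusted p over 0.05 there. With arrays separate, with the replicate block or with the scan block, Hao2 lay at -0.23 and Xlr4b at 0.36. With normexp Xlr4b lay at 0.17 and Il1r2 at -0.0064, and with the mean of probes Apob at -0.23 and Cbfa2t3 at -0.25. Leaving out 1 array gave -2.11 to 0.92 for Hao2, -0.36 to 1.48 for Xlr4b, -3.24 to 0.21 for Sult2a2, -0.75 to 0.76 for Cbfa2t3, -0.17 to 1.30 for Ccr7, -0.029 to 1.35 for Cdk15 and -0.61 to 0.058 for Ctrb1. The low end of Hao2 and the high end of Ctrb1 came without control replicate 1, and the reversals of the others without MCT 270 replicate 1. The medians of 18 lists changed sign in at least 1 setting.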
